A study of Mus musculus with 22 samples.

Results

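The gene-dense bins were the windows of 100 kb on the mouse autosomes that hold the transcription start of 5 or more protein-coding genes. A start was the first base of a gene on its strand in the GENCODE M21 annotation of mm10, and olfactory receptor (Olfr), vomeronasal receptor (Vmn), protocadherin (Pcdh), keratin (Krt) and beta-defensin (Defb) genes were not counted. The rule used gene positions and no methylation value, apart from a requirement that the 5mC level lie above 0 and below 1 in all 7 libraries, which removed none of the bins with 5 or more starts. It gave 633 bins of 24011 autosomal bins kept (2.64%) and of 26327 bins listed with chromosome X. These 633 bins held 4000 of 19128 counted autosomal starts (20.9%). They had 5 to 17 starts with a median of 6, 270 of them had exactly 5, and 343 lay directly next to another gene-dense bin. Chromosome 7 held 96 of them (6.76% of its bins), chromosome 11 held 72 (6.06%) and chromosome 17 held 52 (5.66%), while chromosome 12 held 7 (0.598%). The reference bins were 5058 autosomal bins of 1 start and 14362 of 0 starts.

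The samples came from C57BL/6 mice aged 8 weeks, untreated as far as the labels tell and female by the study's methods, in 3 tissues: the cerebral cortex without the hippocampus, the olfactory bulb and the cerebellum. 5-methylcytosine (5mC) was measured by oxBS-seq, in which 5-hydroxymethylcytosine (5hmC) is oxidised before bisulfite treatment so that only 5mC reads as C, in 3 cortex, 2 olfactory bulb and 2 cerebellum libraries. 5hmC was measured by TAB-seq, in which only 5hmC is protected and reads as C, in 3 libraries of each tissue. Each value was a fraction between 0 and 1 for a bin of 100 kb (5mC) or 1 Mb (5hmC), and the read depth behind it is unknown. Replicates came from independent mice. Each library was made from whole tissue, so a shift in the make-up of cell types and a change within cells cannot be told apart in any comparison of tissues. The levels of bins correlated between replicates with r of 0.947 to 0.982 for 5mC, and no pair of replicates held the same value in more than 2 bins.

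Mammalian DNA is methylated mostly at CpG sites, and most CpG sites outside regulatory elements carry the mark. CpG sites are rare in the genome because methylated cytosine mutates readily, and they remain frequent in CpG islands, which overlap many promoters and are usually unmethylated. Genes of basic cell functions often have such CpG-rich promoters and lie close together, whereas several tandem families of immune, skin or sensory genes are packed as densely with CpG-poor promoters. 5hmC is made from 5mC by TET enzymes and is abundant in neurons, mostly within gene bodies.

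The 250 bases before 1 start of each of the 3 lowest and the 3 highest gene-dense bins in 5mC level are printed here. These 6 sequences held more CpG sites in the lowest bins than in the highest. In each bin the start with the median number of CpG sites was taken, sequences are from GRCm38 (mm10) on the strand of the gene from 5′ to 3′, and capitals mark CpG sites. The first 3 belong to the bins of Hoxc, Hoxa and Hoxb genes. The upstream sequence of Hoxc6 (chr15:102998007-102998256, plus strand) had 14 CpG sites, that of Gm28308, a gene of the Hoxa cluster (chr6:52213340-52213589, minus strand), had 11, and that of Hoxb3 (chr11:96323076-96323325, plus strand) had 9. The other three belong to the bins of the predicted genes Gm428 (chr4:73683266-73683515, plus strand, 2 sites), Gm11168 (chr9:3003096-3003345, plus strand, 6 sites) and Gm10061 (chr16:89150836-89151085, plus strand, 1 site).
Hoxc6: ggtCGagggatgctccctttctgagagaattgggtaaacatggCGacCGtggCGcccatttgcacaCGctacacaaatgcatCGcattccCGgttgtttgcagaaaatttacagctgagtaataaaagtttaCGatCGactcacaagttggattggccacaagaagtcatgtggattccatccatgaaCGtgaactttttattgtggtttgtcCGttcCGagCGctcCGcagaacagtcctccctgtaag
Gm28308: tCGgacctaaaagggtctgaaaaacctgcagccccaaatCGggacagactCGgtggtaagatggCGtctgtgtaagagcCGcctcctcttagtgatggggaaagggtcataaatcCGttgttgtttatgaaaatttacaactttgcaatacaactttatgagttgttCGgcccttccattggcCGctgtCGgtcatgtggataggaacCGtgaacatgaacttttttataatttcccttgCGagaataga
Hoxb3: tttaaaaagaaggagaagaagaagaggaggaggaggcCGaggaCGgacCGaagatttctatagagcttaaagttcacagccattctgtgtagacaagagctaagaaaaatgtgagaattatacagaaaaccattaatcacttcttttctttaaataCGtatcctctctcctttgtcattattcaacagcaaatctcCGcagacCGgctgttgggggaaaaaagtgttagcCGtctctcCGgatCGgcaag
Gm428: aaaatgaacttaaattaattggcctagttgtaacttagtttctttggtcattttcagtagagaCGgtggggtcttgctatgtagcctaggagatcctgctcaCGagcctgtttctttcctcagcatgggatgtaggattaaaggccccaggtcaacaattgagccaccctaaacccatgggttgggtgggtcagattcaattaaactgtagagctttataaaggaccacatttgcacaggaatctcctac
Gm11168: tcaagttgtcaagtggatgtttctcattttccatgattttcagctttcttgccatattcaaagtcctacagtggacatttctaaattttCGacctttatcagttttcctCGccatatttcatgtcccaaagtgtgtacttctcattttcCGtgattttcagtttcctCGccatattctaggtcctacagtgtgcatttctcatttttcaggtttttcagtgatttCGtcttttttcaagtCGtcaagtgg
Gm10061: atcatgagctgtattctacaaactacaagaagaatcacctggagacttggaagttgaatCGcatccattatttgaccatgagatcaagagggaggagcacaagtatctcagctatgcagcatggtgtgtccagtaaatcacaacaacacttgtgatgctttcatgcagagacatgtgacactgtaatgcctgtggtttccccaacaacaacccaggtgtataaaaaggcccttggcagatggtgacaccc

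Over windows of 300 bases around the start, the Hoxc bin had 16 to 26 CpG sites per start, the Hoxa bin 5 to 45 and the Hoxb bin 3 to 22, against 1 to 3, 5 to 7 and 0 to 2 in the bins of Gm428, Gm11168 and Gm10061. The median over all 4000 starts of the gene-dense bins was 13 sites, the same as over all 19094 counted starts of the autosomal bins kept, and it was 14 for the starts of the bins of 1 start. The starts of gene-dense bins were thus not richer in CpG than other starts. A CpG-rich start, defined by a window of 500 bases near the start with a GC content of at least 0.55 and an observed over expected CpG of at least 0.75, was found at 1444 of the 4000 starts (36.1%), against 39.0% of the starts of bins of 1 start.

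The gene-dense bins were less methylated than the bins with few or no starts in every library. Their mean 5mC level was 0.544, 0.554 and 0.526 in the 3 cortex libraries (0.541 ± 0.0144, SD, n = 3), 0.579 and 0.567 in the olfactory bulb (0.573 ± 0.00796, n = 2) and 0.580 and 0.564 in the cerebellum (0.572 ± 0.0107, n = 2). Bins of 1 start had 0.642 ± 0.0158, 0.671 ± 0.00596 and 0.701 ± 0.0120 in the same tissues. Bins of 0 starts had 0.706 ± 0.0143, 0.738 ± 0.000818 and 0.769 ± 0.0113. The 3 kinds of bins did not overlap between any libraries of a tissue. Within a library, the difference of the gene-dense bins to the bins of 0 starts was -0.170, -0.160 and -0.164 in the cortex, -0.160 and -0.170 in the olfactory bulb, and -0.197 and -0.196 in the cerebellum. The difference to the bins of 1 start was -0.101 ± 0.00342, -0.0980 ± 0.00200 and -0.129 ± 0.00123 in the 3 tissues, and it too lay below 0 in 7 of 7 libraries. Both differences were larger in the cerebellum than in any library of the other tissues. Since the bins of a class share their library, the spread is that between libraries, and no p-value was computed for these means.

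The choice of the reference moved the size and not the direction. The 8462 bins of 0 starts that no protein-coding gene touches were the most methylated, with 0.726, 0.759 and 0.787 in the cortex, olfactory bulb and cerebellum. The 3739 bins of 0 starts of which at least 95% lies inside genes had 0.664, 0.696 and 0.738. Against the former the gene-dense bins differed by -0.185 ± 0.00576, -0.186 ± 0.00815 and -0.214 ± 0.000378, and against the latter by -0.123 ± 0.00364, -0.123 ± 0.00494 and -0.166 ± 0.00108. The plot of these differences shows each library on its own.

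**Figure D1:**
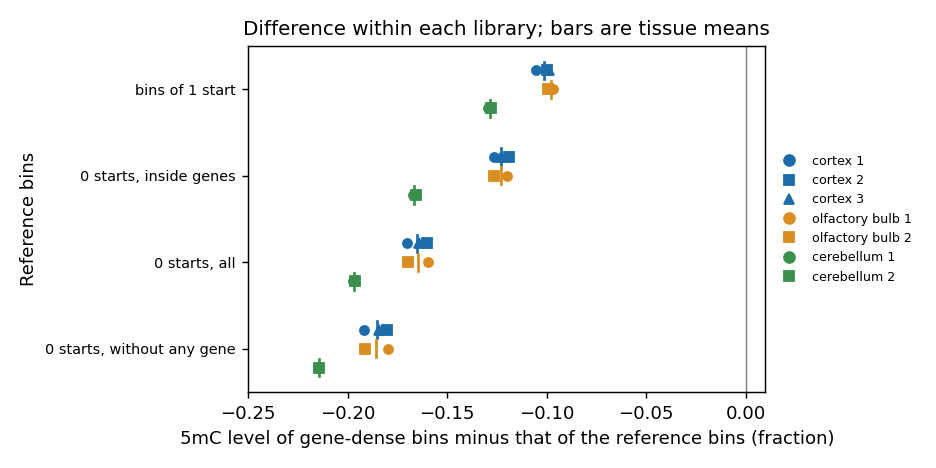
Difference in mean 5mC level (fraction) between the gene-dense bins and 4 sets of reference bins (rows), each point a library and each vertical bar a tissue mean. All points lie below 0, from -0.0965 to -0.215, and the 2 cerebellum libraries lie farthest from 0 in each row.

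The level fell in steps with the number of starts. In cortex library 1 it was 0.714 for 0 starts, 0.649 for 1, 0.637 for 2, 0.615 for 3, 0.593 for 4, 0.575 for 5, 0.541 for 6, 0.517 for 7 to 9 and 0.449 for 10 or more. The same order was seen in the other 6 libraries. Bins of 5 starts, just inside the rule, differed from the 512 bins of 4 starts, just outside it, by -0.0170 ± 0.00108 in the cortex, -0.0177 ± 0.00095 in the olfactory bulb and -0.0234 ± 0.000104 in the cerebellum, so the limit of 5 starts marks no jump. The 38 bins with 10 or more starts differed from the bins of 5 starts by -0.120 ± 0.00944, -0.127 ± 0.00101 and -0.144 ± 0.00316. In these 38 bins the cerebellum (0.470 and 0.459) did not lie above the olfactory bulb (0.483 and 0.472). This was already so for the means of the bins of 6 starts (0.568 and 0.571).

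**Figure D2:**
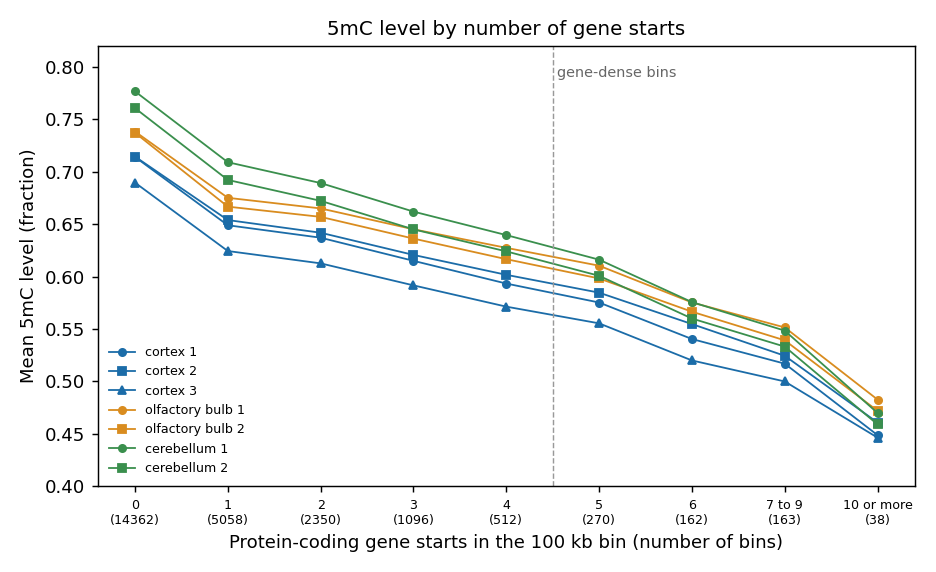
Mean 5mC level (fraction) of autosomal 100 kb bins by the number of protein-coding starts they hold (number of bins in brackets), one line per oxBS-seq library. Every line falls from left to right, and the cerebellum lines are highest at 0 starts (0.777 and 0.761). They approach those of the olfactory bulb step by step and meet them before the gene-dense bins. At 3 starts cerebellum library 2 and olfactory bulb library 1 are both at 0.645. At 4 starts the cerebellum has 0.640 and 0.624 and the olfactory bulb 0.627 and 0.617.

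The bins around a gene-dense bin were also less methylated than more distant ones, and they held more starts themselves. The 762 bins next to a gene-dense bin had a mean of 2.08 starts and levels of 0.615 ± 0.0150, 0.644 ± 0.00583 and 0.653 ± 0.0115 in the cortex, olfactory bulb and cerebellum. Bins more than 50 bins away on the same chromosome had a mean of 0.423 starts and levels of 0.691, 0.723 and 0.757. With the starts held at 0, the 110 bins next to a gene-dense bin had 0.680 ± 0.0125, 0.705 ± 0.000539 and 0.715 ± 0.0120, and the 7653 bins more than 50 bins away had 0.711 ± 0.0143, 0.745 ± 0.000699 and 0.779 ± 0.0111. The libraries of a tissue did not overlap between these neighbours and the distant bins in any of the 3 tissues. The CpG density of the neighbours was higher, with a median of 8.89 against 5.98 CpG sites per kb.

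CpG density and base composition went with the number of starts. The median gene-dense bin had 14.8 CpG sites per kb, a GC content of 48.3% and 69.4% of its length within genes. Bins of 1 start had 9.56 sites per kb, 42.8% and 48.6%, and bins of 0 starts had 6.36 sites per kb and 39.8%. Across the 633 bins, the level in the cortex had a Spearman rho of -0.680 with CpG sites per kb, -0.490 with GC content, -0.343 with the number of starts and -0.404 with the share of CpG-rich starts. In the cerebellum the same values were -0.721, -0.587, -0.378 and -0.376. These are descriptions over bins that share their libraries and, where adjacent, their region.

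Within classes of CpG density the gene-dense bins were still less methylated in every library where the density was 8 to 20 CpG sites per kb. The density was not matched further within a class. In bins of 15 to 20 sites per kb, 267 gene-dense bins differed from 126 bins of 0 starts by -0.138 ± 0.00333, -0.123 ± 0.000891 and -0.139 ± 0.00373 in the cortex, olfactory bulb and cerebellum, and from 225 bins of 1 start by -0.0660 ± 0.00218, -0.0539 ± 0.00387 and -0.0818 ± 0.00157. In bins of 10 to 12 sites per kb the differences to the bins of 0 starts were -0.0898 ± 0.00211, -0.0771 ± 0.00303 and -0.101 ± 0.000369. In each of the 4 classes from 8 to 20 sites per kb, both differences lay below 0 in 7 of 7 libraries. At 8 to 10 sites per kb the difference to bins of 1 start was small in the cortex (-0.00658 ± 0.00242) and olfactory bulb (-0.00441 ± 0.00341). In the cerebellum it was -0.0333 ± 0.00404. Bins of few CpG sites did otherwise. The 23 gene-dense bins with under 6 sites per kb lay above the bins of 1 start in all 7 libraries, by 0.0354 ± 0.00145 in the cortex, 0.0330 ± 0.000223 in the olfactory bulb and 0.00359 ± 0.00314 in the cerebellum. Against bins of 0 starts in the same class they lay higher in the cortex (0.0129 ± 0.00140) and lower in the cerebellum (-0.0391 ± 0.00335). The 21 gene-dense bins with 6 to 8 sites per kb also lay above the bins of 1 start in 7 of 7 libraries. In the cortex, olfactory bulb and cerebellum the difference was 0.0355 ± 0.00701, 0.0305 ± 0.00886 and 0.00431 ± 0.00209. To bins of 0 starts it was -0.000846 ± 0.00799, -0.00569 ± 0.00620 and -0.0363 ± 0.00185, below 0 in 5 of 7 libraries.

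The gene-dense bins divided by the kind of their promoters. In 109 bins no start was CpG-rich, in 365 up to 50% of the starts were and in 159 more than 50% were. The 109 bins without a CpG-rich start had 0.660 ± 0.0151 in the cortex, 0.689 ± 0.0039 in the olfactory bulb and 0.690 ± 0.00981 in the cerebellum. The 159 bins with mostly CpG-rich starts had 0.510 ± 0.0145, 0.540 ± 0.0109 and 0.547 ± 0.0118. Bins without a CpG-rich start were higher in 7 of 7 libraries, by 0.142 to 0.155. In the cortex and olfactory bulb these 109 bins, with 631 starts between them, were above the bins of 1 start by 0.0173 ± 0.000727 and 0.0185 ± 0.00206, and in the cerebellum they were below them (-0.0106 ± 0.00214). The CpG density of the 3 kinds differed too, with medians of 9.14, 15.1 and 15.4 sites per kb.

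**Figure D3:**
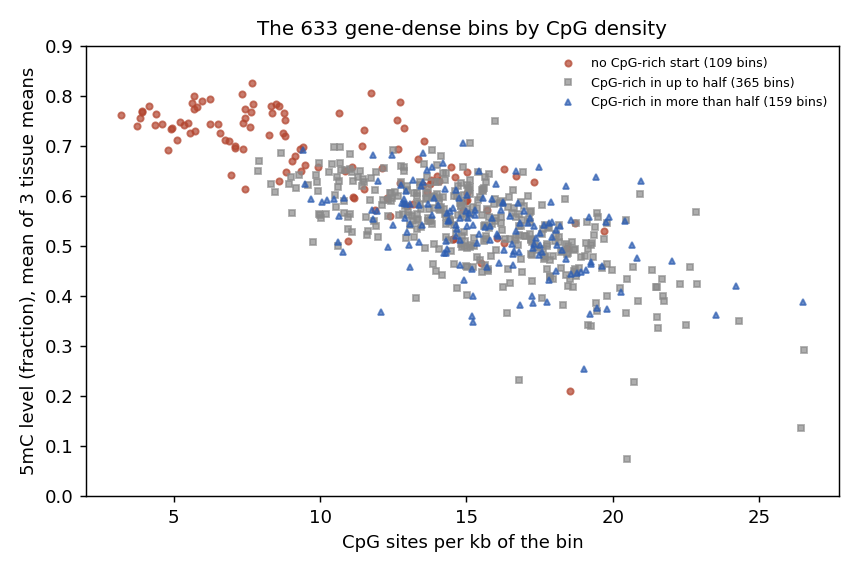
5mC level (fraction, mean of the 3 tissue means) of the 633 gene-dense bins against their CpG sites per kb, one point per bin. The 109 bins without a CpG-rich start (circles) lie mostly in the upper left, and the bins with CpG-rich starts lie mostly lower on the right. An exception is the Hoxb bin, which has no CpG-rich start but 18.5 CpG sites per kb and a level of 0.209. The Hoxc bin is the lowest point at 0.0735.

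A family bin was defined as one in which at least 3 and at least 50% of the counted genes share the stem of their symbol. The 72 family bins had 0.609 ± 0.0142, 0.636 ± 0.00376 and 0.636 ± 0.00980 in the cortex, olfactory bulb and cerebellum, above the other 561 bins (0.532, 0.565 and 0.564) in 7 of 7 libraries, by 0.0677 to 0.0805. The direction depended on the promoters. Among bins without a CpG-rich start, the 44 family bins lay above the 65 others by 0.0263 to 0.0470. Among bins with at least 1 CpG-rich start, the 28 family bins lay below the 496 others (-0.0229 to -0.0389), and these 28 included all 7 histone and 4 of the 5 Hox family bins.

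The members ranged widely. In the cortex the lowest gene-dense bin had 0.0715, the median 0.541 and the highest 0.7999. Of the 633 bins, 205 (32.4%) were below 0.5 in the cortex, 127 (20.1%) in the olfactory bulb and 143 (22.6%) in the cerebellum, against 4.05%, 3.34% and 3.10% of bins of 1 start and under 1% of bins of 0 starts. Of the 100 lowest autosomal bins by the mean of the 3 tissues, 38 were gene-dense, and of the 1000 lowest, 236 were (23.6%), compared with 2.64% of all bins.

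The 4 lowest bins each held a Hox cluster, the homeobox genes that pattern the body axis and are repressed by Polycomb in most adult forebrain cells. The Hoxc bin (chr15:102900001-103000000, 8 starts from Hoxc13 to Hoxc6) had 0.0719, 0.0826 and 0.0600 in the cortex, 0.0890 and 0.0699 in the olfactory bulb, and 0.0679 and 0.0713 in the cerebellum. The Hoxa bin (chr6:52200001-52300000, 9 starts) had 0.120 to 0.142 in the cortex, 0.123 and 0.139 in the olfactory bulb and 0.139 and 0.146 in the cerebellum. The libraries of the 3 tissues overlapped in both. The Hoxb bin (chr11:96300001-96400000, 5 starts) had a mean of 0.209 and the Hoxd bin with Evx2 (chr2:74600001-74700000, 6 starts) of 0.228. None of these 4 bins passed the test of any pair of tissues described below (smallest adjusted p = 0.211, limma).

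The 4 highest bins held almost only predicted genes with Gm names, none with a CpG-rich start. The bin of Gm11238 to Gm428 (chr4:73600001-73700000) had 0.819, 0.816 and 0.765 in the cortex, 0.817 and 0.850 in the olfactory bulb, and 0.848 and 0.839 in the cerebellum. The bin of Gm10722 to Gm10715 (chr9:3000001-3100000, 9 starts) averaged 0.807, that of Gm6358 to 1110057P08Rik (chr16:89100001-89200000) 0.805 and that of Gm4301 to Gm4312 (chr10:100300001-100400000) 0.801. Where such genes are near-identical copies, reads that map uniquely cover only a part of the bin, and how large this part was is unknown.

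The bins with the most starts were mostly low. The bin with 17 starts (chr2:25200001-25300000), which holds Nelfb, a subunit of the negative elongation factor, Tubb4b, a beta-tubulin, and Anapc2, a subunit of the anaphase-promoting complex, had 0.384, 0.404 and 0.367 in the cortex, 0.404 and 0.428 in the olfactory bulb, and 0.390 and 0.384 in the cerebellum. Its starts include 2 gene records named Ndor1. The bin of 15 starts with Bscl2, the seipin gene, and Ganab, a glucosidase subunit (chr19:8800001-8900000) averaged 0.402, and that of 14 starts with Bad, an apoptosis regulator, Vegfb, a growth factor, and Esrra, a nuclear receptor (chr19:6900001-7000000) averaged 0.342. Another with 14 starts held only replication-dependent histone genes (chr13:23500001-23600000) and had 0.222, 0.206 and 0.204 in the cortex, 0.217 and 0.246 in the olfactory bulb, and 0.261 and 0.251 in the cerebellum. The remaining bins of this kind were higher. The bin of Klhl9, Ifnz and 12 predicted genes (chr4:88700001-88800000) averaged 0.547, and the bin of 13 predicted genes without a CpG-rich start (chr10:77700001-77800000) averaged 0.725.

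Gene groups fixed by name spread over the whole range. The 5 bins with Hox genes had cortex levels of 0.0715 to 0.238. The 9 bins with histone genes, 65 starts in all, had 0.210 to 0.543. The 54 bins that hold ribosomal protein genes had a cortex median of 0.491 (0.344 to 0.622), the 15 bins with proteasome subunits 0.529 (0.438 to 0.783) and the 12 bins with subunits of respiratory complex I 0.531 (0.434 to 0.670), close to the median of all gene-dense bins (0.541). The 45 bins with zinc finger genes had 0.551 (0.344 to 0.728) and the 7 bins with H2 genes of the major histocompatibility complex had 0.555 (0.448 to 0.662).

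Other gene groups ranged widely, and the levels given here are those of the cortex. The 5 bins with Lce and Sprr genes, which encode the cornified envelope of skin, had 3.93 CpG sites per kb in the median and cortex levels of 0.715 to 0.746. The 5 bins with Tas2r bitter taste receptors had a median of 0.734 (0.553 to 0.743), the 5 bins with Klk serine proteases 0.679 (0.629 to 0.773) and the 2 bins with Ifna or Ifnb interferon genes 0.670 and 0.740. The 6 bins with cytochrome P450 genes had 0.594 (0.445 to 0.749), the 4 bins with chemokine genes 0.570 (0.428 to 0.692) and the 3 bins with Ly6 genes 0.503 (0.453 to 0.575). The groups of 1 or 2 bins were Ugt genes (0.632 and 0.680), serpins (0.501 and 0.578), Klr receptors (0.629) and Ceacam genes (0.679). No gene-dense bin held a Mup, Prl or Ces gene.

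The comparison of the tissues asked whether the gene-dense bins share the differences between brain regions seen in the rest of the genome. In the gene-dense bins the olfactory bulb and the cerebellum both lay above the cortex, by 0.0318 and 0.0309 in the mean, with no overlap between libraries. The cerebellum and the olfactory bulb had the same level within the spread of their libraries (-0.000966). In bins of 0 starts the order was cortex, olfactory bulb, cerebellum, with steps of 0.0317 and 0.0309. The difference of the cerebellum to the cortex was thus 0.0309 in the gene-dense bins, 0.0582 in bins of 1 start and 0.0626 in bins of 0 starts.

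Bins were tested one by one with limma on log2(level/(1 - level)), in a fit over the 3 tissues and 25664 bins, and a bin was called at a Benjamini-Hochberg adjusted p under 0.05. Between the olfactory bulb and the cortex, 175 of the 633 gene-dense bins were higher in the olfactory bulb (27.6%) against 37.6% of all bins tested, and 1 was lower (0.158%) against 2.18%. Between the cerebellum and the cortex, 260 were higher in the cerebellum (41.1%) against 71.9% of all bins, and 25 were lower (3.95%) against 4.44%. Between the cerebellum and the olfactory bulb, 51 were higher in the cerebellum (8.06%) against 35.3%, and 62 were lower (9.79%) against 7.69%. The share called higher in the cerebellum was therefore below that of all bins in both comparisons, and the share called lower was near it. The p-values rest on a spread between the 2 or 3 libraries per tissue that limma pooled over all bins. The pooled part had 905.1 degrees of freedom, against 4 from the libraries of a bin. A small p-value thus says little about how well the libraries agreed in that bin.

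The tissues differed over the whole genome, and the changes of the gene-dense bins are set beside this shift here. How much of them the shift makes up was not tested. The median change over all 25664 bins, on the log2 ratio scale, was 0.22 from cortex to olfactory bulb, 0.43 from cortex to cerebellum and 0.19 from olfactory bulb to cerebellum, and that over the gene-dense bins was 0.20, 0.19 and 0.00107. With each library centred on its own median, 15 gene-dense bins were higher and 30 lower in the olfactory bulb than in the cortex, 16 higher and 302 lower in the cerebellum than in the cortex, and 19 higher and 224 lower in the cerebellum than in the olfactory bulb. After centring, a call is relative to the library median. Against the cortex and the olfactory bulb, the gene-dense bins had smaller median changes in the cerebellum (0.19 and 0.00107) than all bins (0.43 and 0.19). Most of their calls in the cerebellum were lower on this relative scale. The share of all bins called in this centred fit is not given here, so these counts have no background. Single libraries moved the counts. Calls higher in the olfactory bulb than in the cortex were 28 without olfactory bulb library 1 and 70 without library 2, and the 1 lower call became 0 without cortex library 2 or either olfactory bulb library and 3 without cortex library 3. Calls higher in the cerebellum than in the cortex were 126 without cerebellum library 1, and lower calls were 14 without cortex library 2 and 9 without cerebellum library 2. Between the cerebellum and the olfactory bulb, higher calls were 29, 13 and 18 without olfactory bulb library 1, olfactory bulb library 2 and cerebellum library 1 and 77 without cortex library 3, and lower calls were 26, 39 and 28 without olfactory bulb library 1, olfactory bulb library 2 and cerebellum library 2.

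**Figure D4:**
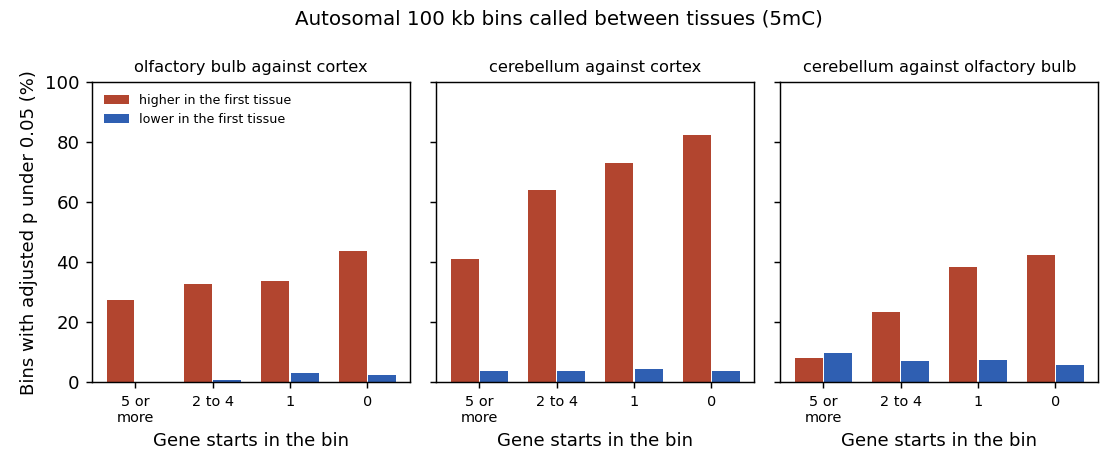
Share of autosomal 100 kb bins (%) with an adjusted p under 0.05 for 5mC, higher (red) or lower (blue) in the first tissue, by the number of starts in the bin and for each pair of tissues. Calls higher in the cerebellum than in the cortex make up 41.1% of gene-dense bins and 82.6% of bins of 0 starts, and against the olfactory bulb 8.06% and 42.6%.

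Single gene-dense bins departed from this pattern, and some of the bins with large differences and no overlap between libraries are given here. The bin of Ptgds (chr2:25400001-25500000), the prostaglandin D2 synthase of brain, also holds Abca2, a lipid transporter abundant in oligodendrocytes, Fut7, Clic3, Paxx and Lcn12. Its level was 0.560, 0.590 and 0.534 in the cortex, 0.602 and 0.584 in the olfactory bulb, and 0.438 and 0.426 in the cerebellum. It was the most lowered bin of the cerebellum against both tissues, with a log2 ratio change of -0.75 ± 0.12 (SE, limma adjusted p = 1.94e-09) against the cortex and -0.94 ± 0.13 (adjusted p = 2.14e-11) against the olfactory bulb.

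The bin of the gamma-tubulins Tubg1 and Tubg2 and of Cntnap1, an axonal protein of the paranodal junction of myelinated fibres (chr11:101100001-101200000), had 0.466, 0.521 and 0.473 in the cortex, 0.520 and 0.483 in the olfactory bulb, and 0.369 and 0.374 in the cerebellum, and it fell against the cortex (-0.68 ± 0.12, limma adjusted p = 4.92e-08). The bin of Bmp1, a procollagen protease, Sftpc, a surfactant protein, Lgi3, Reep4, Hr, Nudt18 and Fam160b2 (chr14:70500001-70600000) had 0.486, 0.464 and 0.511 in the cortex, 0.591 and 0.522 in the olfactory bulb, and 0.4002 in both cerebellum libraries. It fell in the cerebellum against the olfactory bulb (-0.91 ± 0.13, limma adjusted p = 9.47e-11), and all libraries of each tissue stood apart from those of the others.

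Among the rises in the cerebellum, the bin of Omg, the oligodendrocyte myelin glycoprotein, with Evi2a, Evi2b, Evi2 and Rab11fip4 (chr11:79500001-79600000) had 0.602, 0.576 and 0.564 in the cortex, 0.641 and 0.633 in the olfactory bulb, and 0.735 and 0.720 in the cerebellum (0.95 ± 0.12 against the cortex, limma adjusted p = 4.92e-14). The bin of Vhl, the substrate receptor of a ubiquitin ligase for hypoxia-inducible factors, with Brk1, Irak2, Tatdn2 and Fancd2os (chr6:113600001-113700000) had 0.481, 0.461 and 0.452 in the cortex, 0.542 and 0.540 in the olfactory bulb, and 0.606 and 0.619 in the cerebellum (0.87 ± 0.12, adjusted p = 4.91e-12). In both bins the order was cortex, olfactory bulb, cerebellum, with no overlap.

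Among the rises of the cerebellum over the olfactory bulb, the bin of St5, Akip1, Ascl3, a basic helix-loop-helix factor, Tmem9b and Nrip3 (chr7:109700001-109800000) had 0.557 and 0.520 in the olfactory bulb, and 0.680 and 0.643 in the cerebellum (0.74 ± 0.13, limma adjusted p = 1.82e-07). Its cortex libraries, at 0.540 to 0.6003, overlapped with the olfactory bulb and lay below the cerebellum.

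The largest rises from cortex to olfactory bulb were in the bin of Nr2f6, a nuclear receptor, Use1, a SNARE protein, Ocel1, Ushbp1 and Babam1 (chr8:71300001-71400000), and in the bin of Simc1, Arl10, Nop16 and Higd2a (chr13:54500001-54600000). The former had 0.509, 0.474 and 0.475 in the cortex against 0.605 and 0.587 in the olfactory bulb (0.64 ± 0.12, limma adjusted p = 2.56e-06), and the latter had 0.543, 0.481 and 0.497 against 0.620 and 0.611 (0.64 ± 0.12, adjusted p = 2.57e-06). In both, the cerebellum lay below the olfactory bulb, with values of 0.573 and 0.548 in the former and of 0.584 and 0.532 in the latter. The sole fall was in the bin of Plcb2, a phospholipase C, and Disp2 (chr2:118700001-118800000), which had 0.462, 0.498 and 0.443 in the cortex and 0.422 and 0.399 in the olfactory bulb (-0.34 ± 0.12, adjusted p = 0.0162). This call was lost without cortex library 2 (limma adjusted p = 0.109) and without either olfactory bulb library (0.0718 and 0.226). With each library centred on its median, the calls of this kind given here kept their direction and an adjusted p under 0.05.

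By gene group, the calls are read against those of the 633 gene-dense bins, of which 41.1% were higher and 3.95% lower in the cerebellum than in the cortex, and 8.06% higher and 9.79% lower than in the olfactory bulb. Over all bins tested these shares were 71.9%, 4.44%, 35.3% and 7.69%. The groups are small, and their difference from other bins was not tested. Of the 9 histone bins, 7 were higher in the cerebellum than in the cortex, among them the bin of 14 histone starts described above (0.37 ± 0.12, limma adjusted p = 0.00289), a change below the median of all bins. Of the 54 ribosomal protein bins, 20 were higher and 3 lower in the cerebellum than in the cortex, and 2 were higher and 6 lower in the cerebellum than in the olfactory bulb. Of the 45 zinc finger bins, 16 were higher and 1 lower than in the cortex, and 4 were higher and 4 lower than in the olfactory bulb. Of the 5 bitter taste receptor bins, 3 were lower in the cerebellum than in the olfactory bulb, such as that of chr6:131600001-131700000 (0.762 in the olfactory bulb and 0.6995 in the cerebellum, adjusted p = 0.00175). Of the 3 Ly6 bins, the one within the major histocompatibility region (chr17:35000001-35100000) was lower in the cerebellum (0.407) than in the cortex (0.503, limma adjusted p = 6.92e-06) and the olfactory bulb (0.532, adjusted p = 3.52e-07).

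5hmC was available in bins of 1 Mb, so it was read in the 1 Mb bins that hold the gene-dense bins. Of 2413 autosomal 1 Mb bins kept, 2091 held no gene-dense bin, 322 held at least 1 and 77 held 3 or more, up to 9. The 77 bins with 3 or more had 0.157, 0.169 and 0.150 in the 3 cortex libraries, 0.131, 0.139 and 0.132 in the olfactory bulb, and 0.113, 0.113 and 0.119 in the cerebellum. The 2091 bins without one had 0.168, 0.180 and 0.161, then 0.149, 0.156 and 0.149, and 0.0959, 0.0955 and 0.0987. The difference was -0.0109 ± 0.000276 in the cortex (n = 3), -0.0175 ± 0.000365 in the olfactory bulb and 0.0184 ± 0.00146 in the cerebellum. The regions rich in genes thus had less 5hmC than the rest in every cortex and olfactory bulb library and more in every cerebellum library. The order of the tissues, with the cortex highest and the cerebellum lowest, was the same in both sets.

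**Figure D5:**
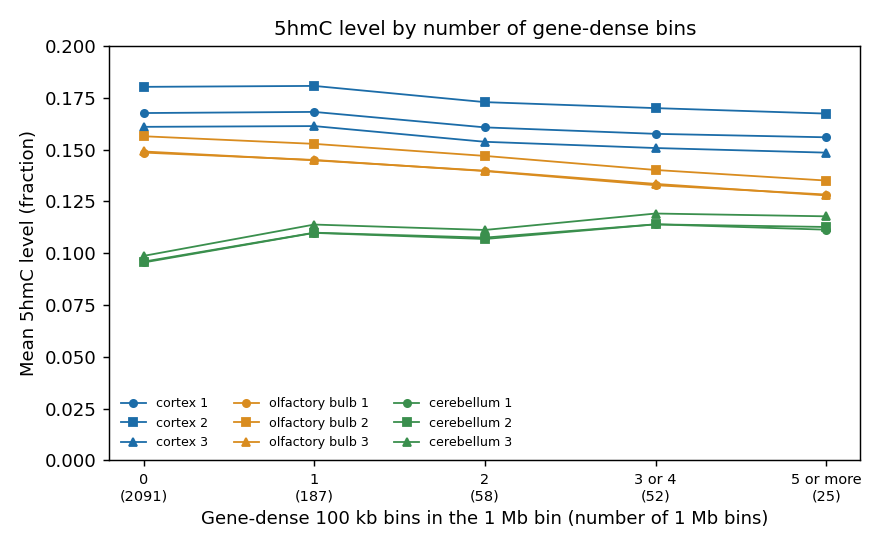
Mean 5hmC level (fraction) of autosomal 1 Mb bins by the number of gene-dense 100 kb bins within them (number of 1 Mb bins in brackets), one line per TAB-seq library. At 5 or more gene-dense bins the cortex and olfactory bulb lines end lower than at 0 (0.180 to 0.167 in cortex library 2). The cerebellum lines end higher (0.0955 to 0.113 in cerebellum library 2). The cortex lines rise slightly at 1 gene-dense bin. Cerebellum library 2 is at 0.110 by 1 gene-dense bin, and the cerebellum lines do not rise steadily after it.

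In limma over 2581 bins of 1 Mb, all calls among the 77 bins but 1 were lower in the second-named tissue of the order cortex, olfactory bulb, cerebellum. Between the cortex and the olfactory bulb, 73 of the 77 were lower in the olfactory bulb (94.8%) against 67.7% of all 1 Mb bins, and 0 were higher against 3.25%. Between the cortex and the cerebellum, 74 were lower in the cerebellum (96.1%) against 97.6%, and 0 were higher against 0.426%. Between the olfactory bulb and the cerebellum, 55 were lower in the cerebellum (71.4%) against 91.8%, and 1 was higher (1.3%) against 1.2%. No further bin of the 77 was higher at an unadjusted p under 0.05 in these fits, and no other tool was run. The median log2 ratio change of the 77 bins was -0.29, -0.53 and -0.26 for these pairs, and that of all bins was -0.24, -0.97 and -0.72. With each library centred on its median, 71 of the 77 were higher and 4 lower in the cerebellum than in the cortex, and 75 were higher and 2 lower in the cerebellum than in the olfactory bulb. The share of all 1 Mb bins called in this centred fit is not given here, so these counts have no background.

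By the mean of the 3 tissues, the bin with the lowest 5hmC of the 77, chr7:43000001-44000000, holds Klk and Siglec genes and had means of 0.0908 in the cortex, 0.0586 in the olfactory bulb and 0.0438 in the cerebellum. The next, chr3:92000001-93000000, holds the Sprr and Lce genes and had 0.111, 0.0815 and 0.0318, the lowest of the 77 in the cerebellum. The highest by the same mean, chr4:155000001-156000000 with Dvl1, a Wnt signalling protein, and Mib2, a ubiquitin ligase, had 0.192 in the cortex, 0.172 in the olfactory bulb and 0.179 in the cerebellum, while chr11:106000001-107000000 was higher in the cortex (0.198) and the olfactory bulb (0.184). The 5mC level of the same 77 regions, averaged over their 100 kb bins, was 0.570 ± 0.0141, 0.598 ± 0.00694 and 0.596 ± 0.0110 in the 3 tissues, against 0.683, 0.714 and 0.744 in the regions without a gene-dense bin.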

How the data were processed

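The authors mapped paired reads uniquely to mm10 with Bismark (version not given in the sources used here), called modified CpG sites with a binomial model and took the level of a site as C reads over C plus T reads. The deposited values are fractions, 1 per library for each bin of 100 kb (5mC, 7 libraries) or 1 Mb (5hmC, 9 libraries). How sites were combined in a bin is not given in the sources used here, and no counts or coverage were used, so no interval for depth can be given. The 6 RNA-seq samples were not analysed here.

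Starts were counted per bin from GENCODE M21, and CpG and GC content were read from GRCm38. Bins at 0 or 1 in any library were left out, which left 25664 bins of 100 kb and 2581 of 1 Mb. Class means were taken per library and summarised as mean ± SD over libraries. Each pair of tissues was tested per bin with limma (version 3.58.1, R 4.3.3) on log2(level/(1 - level)), 1 fit over the 3 tissues, with Benjamini-Hochberg adjustment over all bins of the assay. The code was tested on simulated data. The moderated variance was nearly common to all 5mC bins and identical for all 5hmC bins.

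Named bins were the 6 with the most starts, the 4 lowest and 4 highest, for each pair of tissues the 2 largest rises and falls among called bins without overlap of libraries, and gene groups by symbol. Of these bins, 1 is not reported here. The bins, gene groups, tests and alternatives (scale, centring, filter, start minimum, reference bins, replicate block, each library left out) were chosen with earlier results of these data known. Same-numbered libraries of different tissues did not deviate together in every pair.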

Additional observations from a re-analysis of the deposited data

Results flagged for a closer look

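In some differences all libraries of 1 tissue lay above 0 and all of another below it. These differences between tissues were not tested. The 5hmC difference of 1 Mb bins with 3 or more gene-dense bins to those with none was 0.0184 in the cerebellum, -0.0109 in the cortex and -0.0175 in the olfactory bulb, so that the cerebellum differed from the others by 0.0293 and 0.0359. For 5 or more gene-dense bins the difference was 0.0172 against -0.0124 and -0.0209, a distance of 0.0296 and 0.0382. For 1 gene-dense bin it was 0.000455 in the cortex, -0.00383 in the olfactory bulb and 0.0145 in the cerebellum, with distances of -0.00429 (olfactory bulb to cortex) and 0.0183 (cerebellum to olfactory bulb).

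For 5mC, the 23 gene-dense bins with under 6 CpG sites per kb differed from bins of 0 starts of the same density by -0.0391 in the cerebellum, 0.0129 in the cortex and 0.00593 in the olfactory bulb, so the cerebellum stood at -0.0520 from the cortex and -0.0451 from the olfactory bulb. The 109 gene-dense bins without a CpG-rich start differed from bins of 1 start by -0.0106 in the cerebellum, 0.0173 in the cortex and 0.0185 in the olfactory bulb, distances of -0.0279 and -0.0292. No tissue had enough libraries for a test of a single library against the rest.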

How the results depend on the processing

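Every 5mC difference of the gene-dense bins to the bins of 0 or 1 start stayed below 0 under each alternative tried, and its size followed the definition of the bins. In the order cortex, olfactory bulb, cerebellum, the difference to bins of 0 starts was -0.144, -0.143 and -0.170 with 4 or more starts, -0.225, -0.229 and -0.266 with 8 or more, -0.131, -0.132 and -0.166 with all protein-coding genes counted, -0.179, -0.177 and -0.209 with medians over bins, -0.137, -0.136 and -0.166 with no filter on bins at 0 or 1, -0.185, -0.186 and -0.214 against bins without any gene, and -0.123, -0.123 and -0.166 against bins inside genes. The difference to bins of 1 start was -0.0800, -0.0760 and -0.102 with 4 or more starts, -0.161, -0.162 and -0.198 with 8 or more, -0.0693, -0.0660 and -0.0968 with all genes, and -0.109, -0.105 and -0.141 with medians. The 5hmC difference of 1 Mb bins was -0.00929, -0.0140 and 0.0156 for 2 or more gene-dense bins, -0.0124 and -0.0209 in the cortex and olfactory bulb for 5 or more, and -0.0135, -0.0214 and 0.0264 with medians. Calls depended on the setting. With 4 or more starts (1145 bins) the counts higher and lower were 341 and 2 (olfactory bulb against cortex), 559 higher (cerebellum against cortex), and 130 and 96 (cerebellum against olfactory bulb), and with 8 or more starts (118 bins) 23 and 0, 35 and 5, and 5 and 14. The shares moved too, as 29.8%, 48.8% and 11.4% were higher with 4 or more starts, and 19.5%, 29.7% and 4.24% with 8 or more. Centring each library on its median gave 15 and 30, 16 and 302, and 19 and 224 for 5mC, and 10 and 36, 71 and 4, and 75 and 2 for 5hmC. The shares of all bins called after centring are not given here. Without the filter, 78 and 0 were called for the olfactory bulb against the cortex and 31 were higher in the cerebellum than in the olfactory bulb. The cause was not tested. On the fraction scale 3 were lower in the olfactory bulb than in the cortex, and 2 of the 1 Mb bins had more 5hmC in the cerebellum than in the olfactory bulb. With the level taken relative to the mean of all autosomal bins, the olfactory bulb lay 0.000888 above the cortex, and the cerebellum stood at -0.0275 from the cortex and -0.0284 from the olfactory bulb. With medians over bins the cerebellum lay 0.000449 above the olfactory bulb.

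Leaving out each library in turn gave 28 to 201 higher and 0 to 3 lower 5mC calls for the olfactory bulb against the cortex, 126 to 272 and 9 to 35 for the cerebellum against the cortex, 13 to 77 and 26 to 79 for the cerebellum against the olfactory bulb, and 0 to 4 higher 5hmC calls for the last pair. The mean difference of the cerebellum to the olfactory bulb in the gene-dense bins ranged from -0.00854 to 0.00661, with values of 0.00661 without cerebellum library 2 and 0.00466 without olfactory bulb library 1. Labels share replicate numbers between tissues, and whether a number stands for the same mouse is unknown. The deviations of same-numbered libraries correlated with r of -0.0932 to 0.029 for 5mC and -0.191 to 0.429 for 5hmC. Between the olfactory bulb and the cerebellum the 5hmC values were 0.391, 0.429 and 0.0566 for numbers 1, 2 and 3. Differently numbered libraries of these 2 tissues had 5hmC values of -0.408 to 0.124. For 5mC such values cannot decide whether the numbers pair the samples, since the deviations of a tissue with 2 libraries mirror each other. For 5hmC, with 3 libraries per tissue, the deviations are also tied to each other through the tissue mean. Whether the numbers pair the 5hmC samples was not tested. With a replicate block, 4 bins were lower in the olfactory bulb than in the cortex, 81 were higher and 82 lower in the cerebellum than in the olfactory bulb, and 2 of the 1 Mb bins had more 5hmC in the cerebellum than in the olfactory bulb. Blocks from the numbers in library names gave 4 for the first of these. Of 154 values of the named calls between tissues under other settings, 149 kept direction and call, 5 lost the call and 0 reversed. Of these 5, 4 were of the bin of Plcb2. Depth per bin is unknown, so it cannot be said which levels rest on few reads.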

Other observations

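Chromosome X was left out of the gene-dense bins. It held 19 bins of 5 or more starts, among them 5 of Rhox homeobox genes (37200001 to 37900000), which had tissue means between 0.758 and 0.775, and the bin of Flna, Emd and Rpl10 (74200001 to 74300000), the lowest at 0.585. The 19 bins had a median of 10.2 CpG sites per kb and mean 5mC levels of 0.693, 0.694 and 0.673 in the cortex, 0.712 and 0.709 in the olfactory bulb, and 0.696 and 0.683 in the cerebellum. They lay below the 1051 X bins of 0 starts in 7 of 7 libraries, by -0.0443 ± 0.00205 in the cortex, -0.0393 ± 0.00230 in the olfactory bulb and -0.0359 ± 0.000658 in the cerebellum, and below the 419 X bins of 1 start by -0.0192 ± 0.00346, -0.0129 ± 0.0010 and -0.0116 ± 0.000519. On the X the cerebellum did not lie above the olfactory bulb in bins of 0 starts (0.732 and 0.719 against 0.7496 and 0.7494).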
